A study of Mus musculus with 18 samples.

Results

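Glutamine was compared with no glutamine in 9 RNA libraries from visceral adipose tissue of mice on HFD, which are 9 of the 18 libraries of the study. The members were all libraries of the adipose count table, chosen by their labels and not by any measured value. The mice were male C57BL/6J, an inbred laboratory strain, and every adipose sample description carries HFD, the usual short form of high-fat diet. In 4 libraries the treatment label reads no, and in 5 it reads Glutamine. These are called the HFD arm and the glutamine arm, and both arms share the diet, the sex and the strain. The genotype field repeats the treatment, so no mutant or transgene is named. Age, dose, route and duration of glutamine are not in the labels used here.

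The sample titles read mAT-MSC VAT with a pair of numbers joined by a plus sign, such as 23+28. The labels do not say what the numbers mean, whether 2 animals were pooled in a library, or how cells were isolated. If they are not separate biological samples, the p-values reflect technical spread alone. Values per library are given below in a fixed order. The HFD libraries come as 1+3, 5+11, 14+17 and 23+28, and the glutamine libraries as 4+6, 10+12, 13+15, 18+20 and 25+27. Levels are CPM, a gene's counts scaled to a common library total and divided by the TMM factor of the library, a correction for differences in composition. Fold changes are log2 of glutamine over HFD ± standard error (SE) from the edgeR fit of 4 against 5 libraries.

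Visceral fat holds more than fat cells. Its stroma contains PDGFRA-bearing progenitors that make collagen and can become adipocytes, a mesothelial surface layer, vessels with their pericytes, and resident leukocytes. In obesity macrophages gather there, present antigen through MHC class II and release chemokines. Glutamine circulates in blood at a higher level than other amino acids. Cells take it up through membrane carriers and use it for glutamate, nucleotides and protein, and glutamine synthetase (Glul) makes it anew.

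Library totals ran from 35871168 to 59529238 counts, and 11361 to 14469 genes reached 100 counts in a library. Neither measure differed between arms beyond the spread of libraries (exact two-sided permutation over 126 splits, p = 0.587 and p = 0.190, with adjusted values of 0.587 and 0.381). Mitochondrially encoded genes held 0.0141% to 0.0233% of counts. Across 7905 abundant genes the correlation of log2 levels between pairs of libraries ran from 0.679 to 0.933, and HFD 23+28 had the lowest median correlation with the others, 0.741.

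The labelled cell type was present, together with other cells of the tissue. The 16 adipose progenitor markers summed to 20800 to 27010 CPM over the 9 libraries. Dcn, the proteoglycan decorin of fibroblasts, stood at 11544 to 18183 CPM, and Pdgfra at 221 to 459 CPM. The pan-leukocyte gene Ptprc (CD45), which marks leukocytes and not stromal cells, was counted in every library at 53.6 to 311 CPM. Pecam1 of endothelium stood at 71.5 to 340 CPM, and the adipocyte hormone gene Adipoq at 9.78 to 57.2 CPM. In bulk RNA fewer cells of a type and less RNA per cell cannot be told apart, so a lower level below can be either.

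Some libraries stood apart, and this touches the results that follow. HFD 23+28 had the highest summed level of the core macrophage, resident macrophage, monocyte and dendritic, MHC class II, B and plasma cell, and T and NK cell lists. HFD 5+11 had an erythroid sum of 18579 CPM against 1851 to 8584 CPM in the other libraries. Glutamine 25+27 had a mesothelial sum of 94.5 CPM against 533 to 1323 CPM elsewhere. A list of 10 spermatid genes, chosen after the values were seen, summed to 3586 CPM in glutamine 10+12, 819 CPM in HFD 23+28 and 232 CPM in HFD 1+3. In the other 6 libraries it summed to 1.47 to 33.1 CPM. Tnp1, a transition protein of maturing sperm, stood at 798 CPM in glutamine 10+12 and at 0.252 CPM in glutamine 25+27. The part of these library differences in the results was not tested, and list medians are also given below without the library concerned where it moves them.

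**Figure D1:**
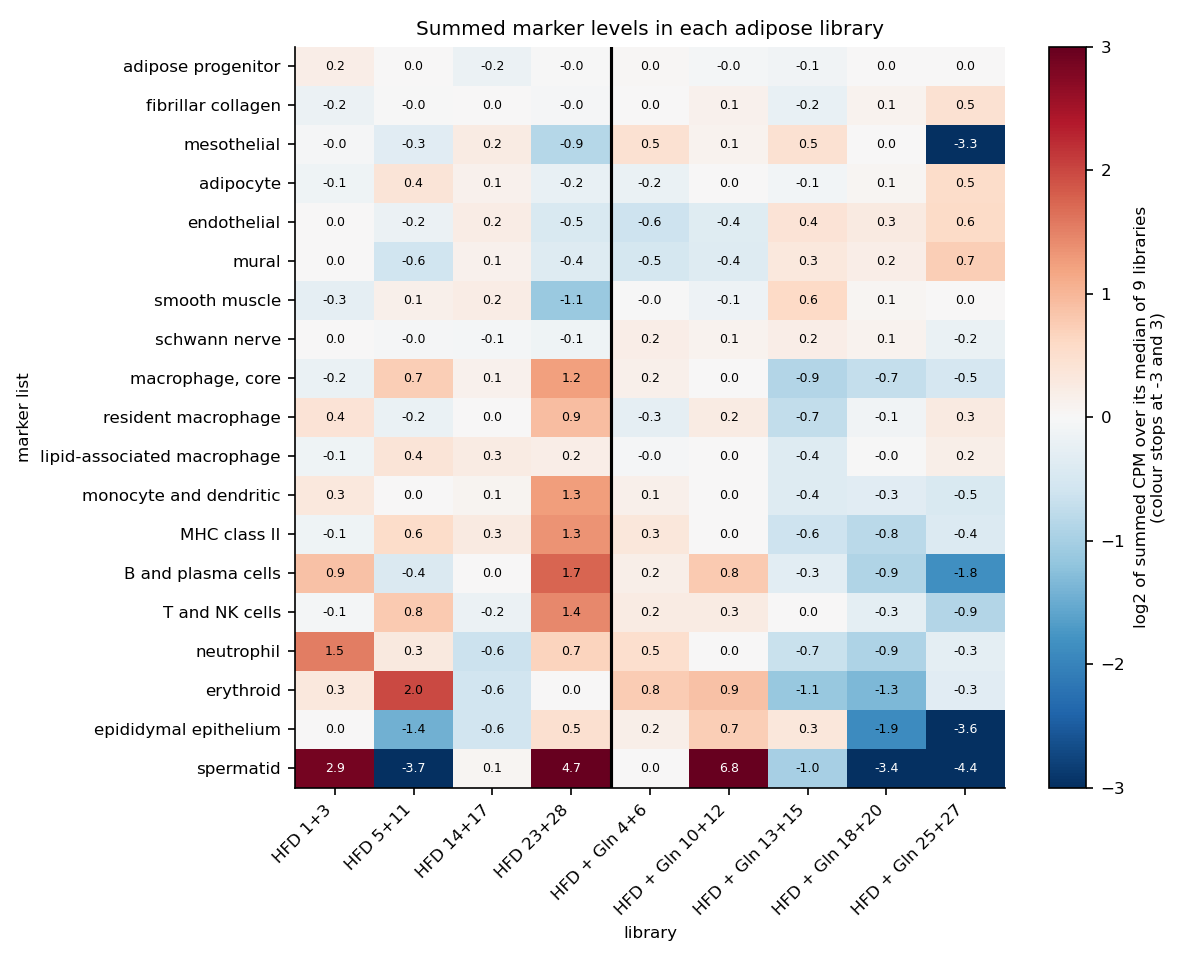
Summed TMM-scaled CPM of 19 marker lists (rows) in each of the 9 adipose libraries (columns), as log2 of the level over the list's median of 9 libraries, with a black line between arms. HFD 23+28 is high for most leukocyte lists, glutamine 25+27 is low for mesothelium, and spermatid genes reach 3586 CPM in glutamine 10+12.

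Across all genes, no difference between the arms passed the test. Of 46983 genes listed, 15114 passed the count filter, and edgeR called 0 of them at an adjusted p under 0.05 (0.0%). The lowest adjusted p was 0.687. Counting genes whose unadjusted p was under 0.05 gave 281 higher with glutamine (1.86%) and 343 lower (2.27%), 624 in all (4.13%). With no difference between arms, a share of about 0.05 of genes passes this threshold by chance. The higher and lower counts moved with single libraries, to 958 and 543 without HFD 14+17 and to 170 and 220 without glutamine 13+15. The higher count was 487 without HFD 1+3 and 475 without HFD 5+11, and the lower count was 215 without HFD 23+28. The levels of the arms did not overlap for 155 genes that were higher (1.03%) and 97 that were lower (0.642%). The median fold change of all genes was -0.02, and 51.4% were negative. DESeq2 called 31 genes (0.205%), 28 higher and 3 lower. All 31 had an unadjusted edgeR p under 0.05, and 14 of them had at most 3 counts in one library and at least 100 in another of the same arm. Such uneven counts occurred in 25.3% of all genes tested. The median SE was 0.574 on the log2 scale, and 0.335 among the 7905 abundant genes.

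The lowest p in the edgeR fit belonged to Igfals, on chromosome 17 at 24865997 to 24882010 (GRCm38). It encodes the acid-labile subunit that holds insulin-like growth factors in a long-lived complex in blood. Its raw counts were 656, 551, 57 and 337 in the HFD libraries and 1, 1, 0, 0 and 0 in the glutamine libraries. Every HFD library lay above every glutamine library. Per count sequenced, the HFD arm held 1062 times as much, with a 95% interval of 293.5 to 8777 that covers counting error only and rests on 2 counts in the glutamine arm. The edgeR adjusted p was 0.687, and that of DESeq2 was 7.158e-09.

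H2-T23 showed a similar split. It encodes Qa-1, a nonclassical MHC class I molecule that is seen by receptors of NK cells. Its levels were 6.09, 9.73, 3.65 and 7.76 CPM in the HFD libraries and 0, 0.213, 0.196, 0.101 and 0.126 CPM in the glutamine libraries. The arms did not overlap, the fold change was -5.70 ± 1.43, and the adjusted p was 0.9998 in edgeR and 0.000207 in DESeq2. Reads of this gene can be split with near-identical copies in the MHC cluster, so its level is uncertain.

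DESeq2 also called other genes with names, such as Angel1, Dok5, Muc1, Piwil2, Spef2 and Tcfl5, which are not described here. Myoc was a further DESeq2 call. It encodes myocilin, a secreted glycoprotein known from the eye and present in connective tissue. Its levels were 2.90, 0.174, 3.73 and 2.82 CPM in the HFD libraries and 6.05, 15.3, 23.3, 15.0 and 58.8 CPM in the glutamine libraries. The glutamine libraries were all higher, by a fold change of 3.30 ± 0.889, with an adjusted p of 0.9998 in edgeR and 0.0116 in DESeq2. Dkkl1, an acrosomal protein gene that DESeq2 also called, was at 0.0557, 0.0581, 0.0188 and 0.135 CPM against 0, 55.6, 4.90, 5.19 and 0.315 CPM. Of the libraries with most spermatid counts, Dkkl1 was at 55.6 CPM in glutamine 10+12, 0.0557 CPM in HFD 1+3 and 0.135 CPM in HFD 23+28. The part of spermatid RNA in its level was not tested. Dkkl1 was named after its values were seen.

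**Figure D2:**
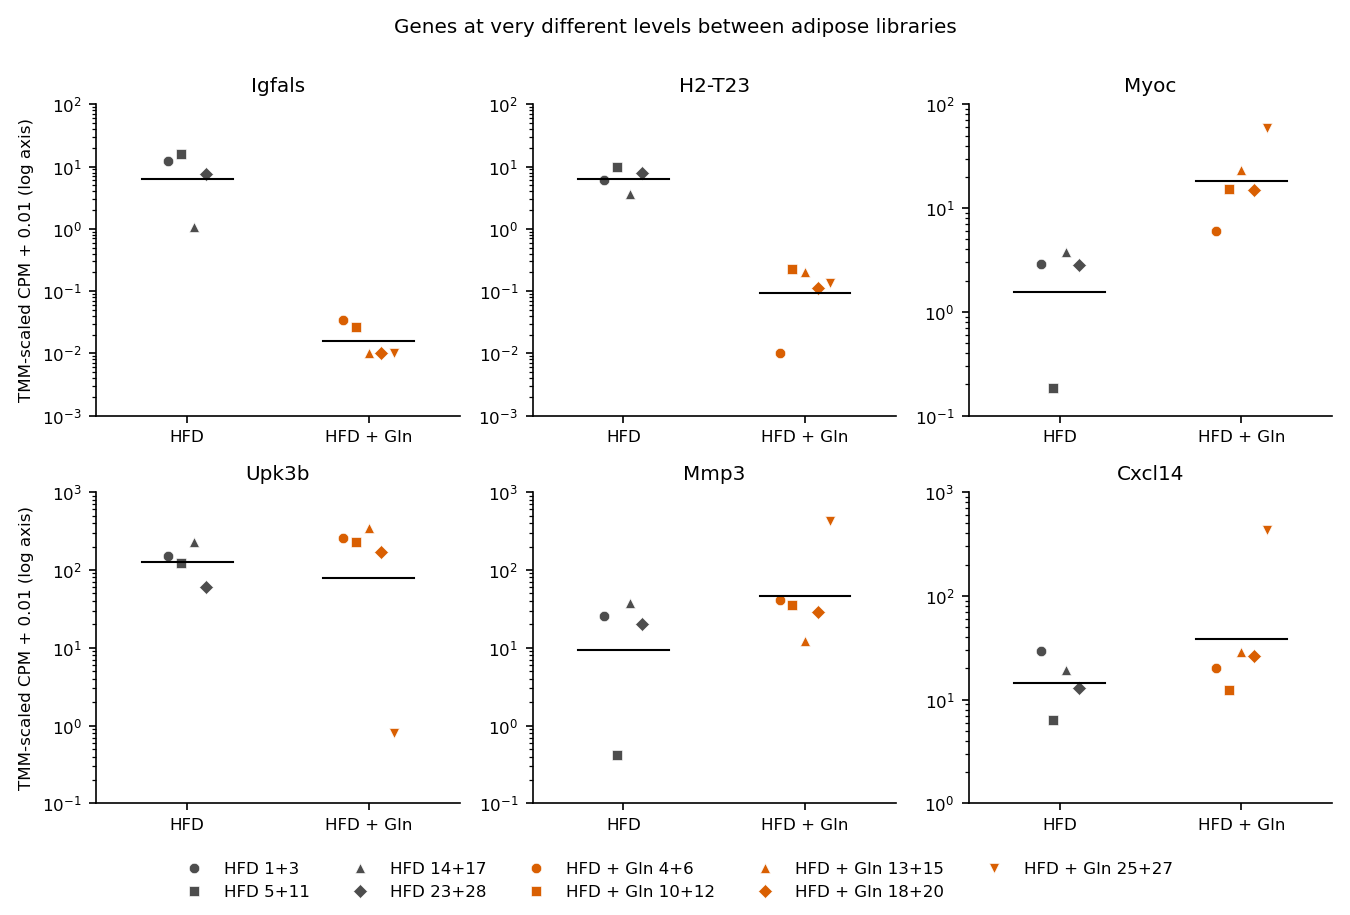
TMM-scaled CPM plus 0.01 on a log axis for 6 genes, 1 point per library and a bar at the mean of log2 values of each arm (4 HFD, 5 glutamine). Igfals and H2-T23 are near 0 in all 5 glutamine libraries, while Upk3b, Mmp3 and Cxcl14 are set apart by glutamine 25+27.

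Among the 11856 genes of a log2 CPM of at least 2, the arms did not overlap for 95 higher with glutamine and 84 lower. Over all genes tested the shares were 1.03% and 0.642%. Leading the higher ones by p was Atp6ap2, on chromosome X at 12587801 to 12617049, which encodes an accessory protein of the vacuolar proton pump. Its levels were 126, 129, 123 and 120 CPM in the HFD libraries and 221, 176, 186, 212 and 181 CPM in the glutamine libraries. The HFD libraries spanned a narrow range and lay below all 5 glutamine libraries (0.65 ± 0.165). It is not on the lysosome and proton pump list, whose 18 members had a median fold change of 0.05 (up to 0.16 without HFD 5+11), with 14 positive and none at an unadjusted p under 0.05.

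Hif1an encodes FIH, an oxygen-dependent hydroxylase that restrains hypoxia-inducible factors. It stood at 7.54, 13.1, 18.8 and 10.4 CPM in the HFD libraries and at 23.1, 45.8, 45.2, 26.0 and 39.6 CPM in the glutamine libraries. The arms did not overlap, with a fold change of 1.53 ± 0.407. Of the 13 hypoxia genes tested, 6 were positive and 7 negative, with a median of -0.01. Rxra, a nuclear receptor that pairs with PPAR gamma in adipocyte formation, stood at 20.8, 16.5, 26.6 and 24.5 CPM against 42.7, 41.1, 51.5, 32.2 and 46.6 CPM (0.96 ± 0.301). Its partner gene Pparg was at 13.5, 10.6, 9.71 and 49.4 CPM against 9.06, 4.74, 7.59, 9.01 and 12.6 CPM, where the arms overlapped and HFD 23+28 was far above the rest (-1.27 ± 0.609, or -0.39 without that library).

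The remaining higher genes of this group have varied roles. Pofut1, which adds O-fucose to Notch receptors, was at 26.7 to 70.8 CPM in the HFD libraries and 85.0 to 114 CPM in the glutamine libraries (1.02 ± 0.282). Snx33, an endosomal sorting nexin, was at 20.5 to 29.1 and 41.2 to 48.1 CPM (0.96 ± 0.273). Sft2d3, a vesicle transport protein gene, was at 14.3 to 28.2 and 36.8 to 51.2 CPM (1.09 ± 0.309). Nucb1, a calcium-binding Golgi protein gene, had the smallest fold change of the group, 0.61 ± 0.194. Ccdc181 and Ccdc82, 2 coiled-coil protein genes, differed by 1.98 ± 0.601 and 1.28 ± 0.418.

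Of the 10 named genes of the lower group, 6 are known from leukocytes, a grouping made after the genes were seen and not tested. Ptprc, on chromosome 1 at 138062861 to 138175708, was at 150, 90.6, 117 and 311 CPM in the HFD libraries. In the glutamine libraries it was at 72.2, 71.3, 79.5, 53.6 and 87.8 CPM. The highest glutamine library lay just under the lowest HFD library, and the fold change was -1.20 ± 0.314, or -0.72 without HFD 23+28. Without scaling beyond library totals the arms overlapped for Ptprc, Ccr2 and Cxcr4.

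Ccr2, the receptor that draws monocytes out of blood, was at 76.2, 59.8, 60.3 and 186 CPM against 49.7, 58.7, 26.8, 40.9 and 23.9 CPM (-1.25 ± 0.382, or -0.71 without HFD 23+28). The gap between the arms was 58.7 to 59.8 CPM, and HFD 23+28 alone was above 100 CPM. Cxcr4, the receptor of the stromal chemokine CXCL12, was at 61.6, 27.1, 27.8 and 80.7 CPM against 15.3, 25.6, 14.2, 26.3 and 7.11 CPM (-1.47 ± 0.456). Cxcl12 itself, made by stroma, differed by -0.03 ± 0.343, with levels of 145 to 360 CPM in the HFD libraries and 139 to 499 CPM in the glutamine libraries.

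Lilrb4a, an inhibitory receptor of myeloid cells, was at 20.1, 42.8, 42.0 and 44.1 CPM against 15.9, 11.6, 12.6, 16.5 and 9.82 CPM (-1.49 ± 0.377). Here HFD 1+3 was the low library of its arm, and HFD 23+28 did not stand apart. Inpp5d, which encodes the leukocyte phosphatase SHIP1, was at 53.5, 36.4, 24.6 and 85.3 CPM against 19.4, 12.8, 23.0, 11.9 and 2.92 CPM (-1.83 ± 0.526). Prkcb, a protein kinase C of B cells and other leukocytes, was at 37.1 to 76.4 CPM against 21.7 to 30.6 CPM (-1.03 ± 0.299), and HFD 23+28 was its lowest HFD library.

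Other genes of the lower group are not known for leukocytes in particular. Ttc8, a subunit of the BBSome that serves cilia, was at 10.7, 13.5, 7.47 and 56.4 CPM against 3.73 to 6.13 CPM (-2.27 ± 0.675, or -1.22 without HFD 23+28). Sytl2, a Rab27 effector of secretion, was at 23.5 to 74.7 CPM against 10.9 to 22.2 CPM (-1.30 ± 0.386). Cdkn2aipnl was at 23.4 to 53.7 CPM against 6.08 to 22.1 CPM (-1.42 ± 0.444). All 20 genes of these 2 groups had an edgeR adjusted p of 0.9998, apart from Igfals.

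**Figure D3:**
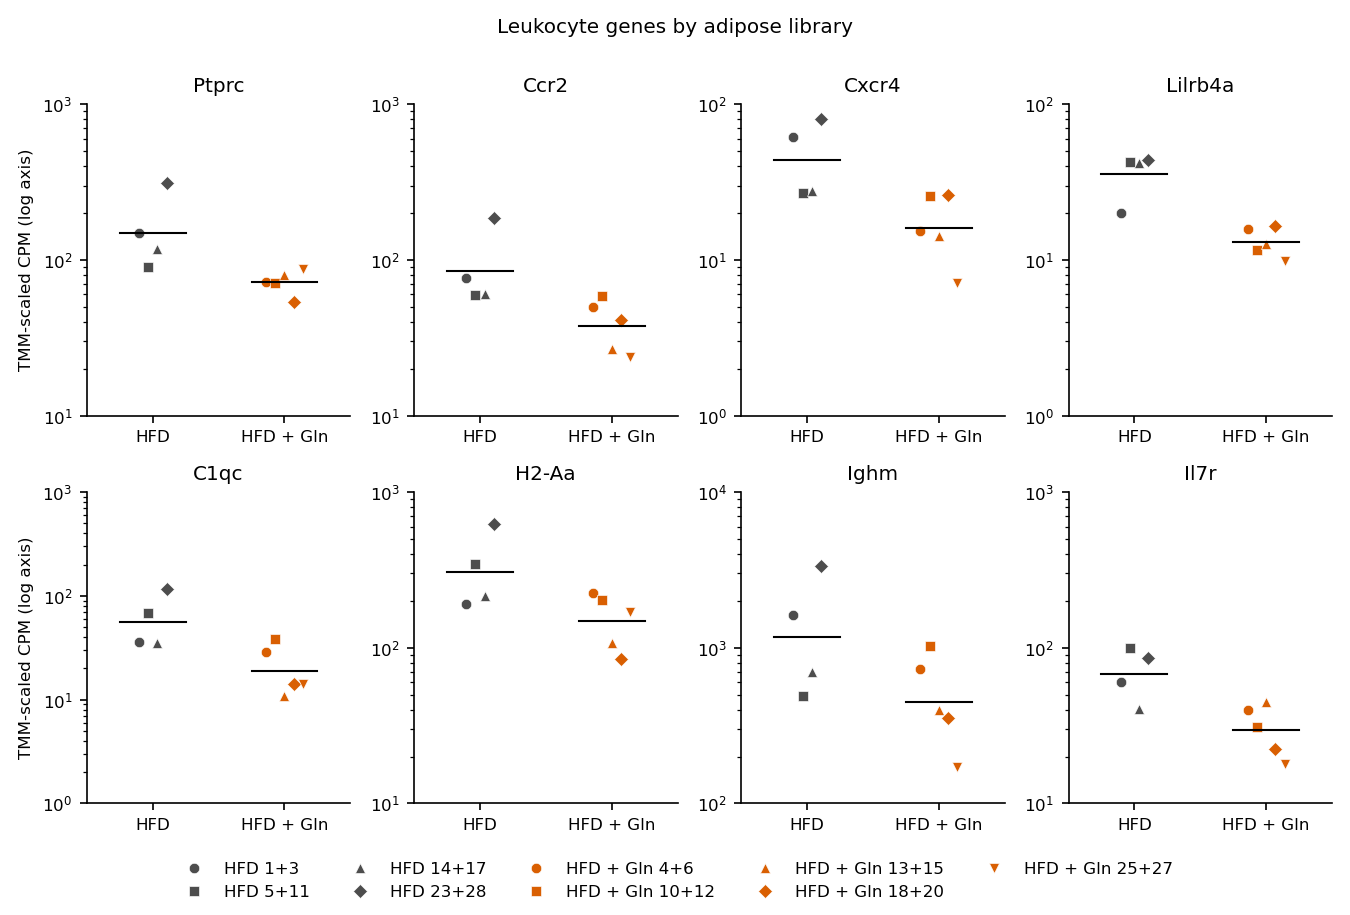
TMM-scaled CPM on a log axis for 8 leukocyte genes, 1 point per library and a bar at the mean of log2 values of each arm (4 HFD, 5 glutamine). For Ptprc, Ccr2, Cxcr4 and Lilrb4a the arms do not overlap, while C1qc, H2-Aa, Ighm and Il7r overlap, and HFD 23+28 (dark diamond) is the highest point in 7 of 8 panels.

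The core macrophage list was lower on balance with glutamine. Of its 18 members, all tested, 15 were negative with a median of -0.66. An unadjusted p under 0.05 in that direction was found for 7 (background 2.27%), and none was called. The 3 positive members were Mertk (0.39), Cx3cr1 (0.26) and Aif1 (0.10). The macrophage marker gene Adgre1 was at 10.7, 17.8, 10.6 and 20.3 CPM against 18.5, 11.3, 13.9, 10.4 and 6.96 CPM (-0.28 ± 0.520), with overlapping arms. The summed level of the list was 776, 1492, 983 and 2103 CPM in the HFD libraries. It was 997, 894, 487, 544 and 634 CPM in the glutamine libraries, so the arms overlapped. Without HFD 23+28 the median was -0.47 and 3 members passed the unadjusted threshold. Without that library and glutamine 25+27 the median was -0.47 and none did. Without HFD 1+3, HFD 23+28 and glutamine 10+12, a choice made after seeing the data, the median was -0.76, with 13 of 18 negative. In that fit 7 members passed the unadjusted threshold.

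C1qa and C1qc encode chains of the first complement component, which tissue macrophages make. C1qc was at 35.6, 68.3, 35.5 and 116 CPM in the HFD libraries and 28.9, 38.7, 10.9, 14.0 and 14.1 CPM in the glutamine libraries (-1.58 ± 0.461). C1qa was at 52.3, 101, 62.6 and 206 CPM against 61.5, 53.7, 28.8, 17.0 and 43.8 CPM (-1.36 ± 0.431, or -0.81 without HFD 23+28). Lyz2, the lysozyme of macrophages and neutrophils, was at 300, 601, 315 and 804 CPM against 389, 286, 107, 159 and 156 CPM (-1.20 ± 0.378). Glutamine 10+12 reached into the HFD range for C1qc and C1qa, and glutamine 4+6 did so for C1qa and Lyz2. The other 3 glutamine libraries lay below that range for all 3 genes.

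Markers of macrophages that reside along vessels were all negative, 12 of 12 tested, with a median of -1.04. Of these, 3 had an unadjusted p under 0.05 (background 2.27%). Cbr2, a carbonyl reductase of resident macrophages, was at 30.6, 72.5, 18.4 and 121 CPM against 15.8, 14.4, 20.0, 8.07 and 30.4 CPM (-1.77 ± 0.517). Mrc1, the mannose receptor CD206, was at 31.5, 88.6, 18.4 and 193 CPM against 30.3, 19.8, 30.1, 21.0 and 43.1 CPM (-1.52 ± 0.537, or -0.69 without HFD 23+28). Both genes were high in HFD 5+11 and 23+28, and HFD 14+17 lay among the glutamine libraries for Cbr2 and below them for Mrc1. The list median was -0.43 without HFD 23+28, still with 12 of 12 negative, and 1 member passed the unadjusted threshold. Without HFD 1+3, HFD 23+28 and glutamine 10+12 the median was -0.51, with 8 of 13 tested members negative. The summed level was 959 to 2095 CPM in the HFD libraries and 664 to 1333 CPM in the glutamine libraries, so the arms overlapped.

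Lipid-associated macrophages clear fat from dying adipocytes in obese tissue. Of 16 genes of this state, 14 were negative with a median of -0.35, and 2 had an unadjusted p under 0.05 (background 2.27%). Trem2, the lipid-sensing receptor of these cells, was at 11.6, 27.3, 31.4 and 26.9 CPM against 9.62, 22.4, 8.44, 6.45 and 5.24 CPM (-1.21 ± 0.543). Itgax (CD11c) was at 8.06, 60.5, 36.0 and 35.6 CPM against 5.88, 5.61, 9.44, 25.3 and 2.04 CPM (-1.86 ± 0.688). In both genes HFD 1+3 lay among the glutamine libraries, and the other 3 HFD libraries lay above all of them. The list median was -0.31 without HFD 23+28.

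Of the 12 monocyte and dendritic genes tested, 9 were negative, with a median of -0.70 that came to -0.13 without HFD 23+28 and to -0.27 without HFD 1+3. Flt3, the growth factor receptor of dendritic cells, was at 6.50, 2.56, 2.46 and 9.44 CPM against 0.0729, 0.0491, 0.0392, 1.03 and 0 CPM (-4.44 ± 1.69, or -6.93 without glutamine 18+20), and the arms did not overlap. Irf8, a transcription factor of dendritic cells and monocytes, was at 85.1, 80.1, 86.5 and 127 CPM against 92.6, 63.9, 51.0, 45.9 and 20.4 CPM (-0.79 ± 0.347).

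The MHC class II list was lower on balance as well. The list holds chains that display peptides to helper T cells, such as H2-Aa and H2-Ab1, their chaperone Cd74, and the protease Ctss. Its other members, such as H2-Oa and Ciita, belong to the same system but do not themselves display peptides in this way, apart from H2-Eb1. Of 11 members, 10 were negative with a median of -0.73. Unadjusted p was under 0.05 for 4 of the 11, Cd74, H2-Aa, H2-Ab1 and Ctss (background 2.27%). H2-Aa was at 191, 346, 215 and 622 CPM in the HFD libraries and 226, 204, 107, 84.7 and 169 CPM in the glutamine libraries (-1.12 ± 0.360, or -0.67 without HFD 23+28). H2-Ab1, its partner chain, was at 156, 272, 225 and 614 CPM against 218, 202, 128, 84.2 and 147 CPM (-1.02 ± 0.365, or -0.49 without HFD 23+28). Cd74 was at 195, 266, 235 and 348 CPM against 209, 176, 143, 115 and 143 CPM (-0.73 ± 0.220). In all 3 genes glutamine 4+6 lay inside the HFD range and glutamine 18+20 was the lowest library. Without HFD 23+28 the list median was -0.57, with 9 of 11 negative and 1 member at an unadjusted p under 0.05. Without glutamine 4+6 the median was -1.17.

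Promoters of this list and of the core macrophage list were read from RefSeq (GRCm38.p6), because class II genes are known to share upstream boxes, among them a Y box with the core CCAAT that NF-Y binds. The 250 bases before the start are shown for an alpha and a beta chain of class II and for C1qc as a macrophage gene outside the class II system. Capitals mark matches to CCAAT, which is printed as ATTGG where it lies on the opposite strand. They also mark the core of a PU.1 site, GAGGAA, which is printed as TTCCTC where it lies on the opposite strand. H2-Aa is on the minus strand at chr17:34287824-34288073, H2-Eb1 on the plus strand at chr17:34305617-34305866, and C1qc on the minus strand at chr4:136892915-136893164.
H2-Aa: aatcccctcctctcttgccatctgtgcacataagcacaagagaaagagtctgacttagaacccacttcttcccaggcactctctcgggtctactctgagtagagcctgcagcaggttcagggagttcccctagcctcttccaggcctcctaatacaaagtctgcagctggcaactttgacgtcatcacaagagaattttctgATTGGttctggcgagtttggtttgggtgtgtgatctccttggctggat
H2-Eb1: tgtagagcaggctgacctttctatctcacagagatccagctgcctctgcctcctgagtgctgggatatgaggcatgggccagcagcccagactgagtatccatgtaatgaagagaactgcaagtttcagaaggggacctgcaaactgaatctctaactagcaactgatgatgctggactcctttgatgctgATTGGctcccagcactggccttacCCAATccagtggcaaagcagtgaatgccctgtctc
C1qc: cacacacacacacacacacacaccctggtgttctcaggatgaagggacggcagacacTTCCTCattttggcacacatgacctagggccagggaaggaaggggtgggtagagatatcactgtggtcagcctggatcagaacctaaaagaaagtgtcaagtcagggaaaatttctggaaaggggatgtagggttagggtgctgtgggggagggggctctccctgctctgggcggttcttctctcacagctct

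A promoter was found for 8 of the 11 class II list members, all but H2-Ab1, Cd74 and Ciita, and 6 of these 8 hold CCAAT in the window, against 33.8% of all 32851 RefSeq promoters of this length. In these 6 genes the match nearest the start began 35 to 90 bases before it. They include H2-Oa, the 1 member of the list with a positive fold change, 0.50. GAGGAA was in 2 of the 8 and TATAAA in 1, against 23.3% and 12.4% of all promoters. Of 13 core macrophage promoters found, all but those of Adgre1, Csf1r, C1qa, Tyrobp and Cd14, 7 hold GAGGAA, 5 hold CCAAT and 1 holds TATAAA. No matches overlap in the stretches shown, and a match describes the sequence and not a bound site.

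The medians of the lymphocyte lists moved toward 0 without HFD 23+28. Of 13 B and plasma cell genes tested, 12 were negative with a median of -0.59. Ighm, the heavy chain of IgM, was at 1633, 489, 702 and 3329 CPM against 735, 1022, 400, 354 and 171 CPM (-1.52 ± 0.541, or -0.81 without HFD 23+28). Jchain, which joins secreted IgM and IgA, was at 337, 117, 133 and 551 CPM against 161, 209, 93.8, 74.6 and 48.1 CPM (-1.27 ± 0.478, or -0.74 without HFD 23+28). For both genes HFD 1+3 and 23+28 lay above all glutamine libraries, and HFD 5+11 and 14+17 lay among them. Without HFD 23+28 the list median was -0.12 with 8 of 13 negative, and no member had an unadjusted p under 0.05. The median was -0.31 without glutamine 25+27 and -0.91 without HFD 5+11.

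Of 16 T and NK cell genes tested, 12 were negative with a median of -0.92. Il7r, the interleukin-7 receptor of T cells and innate lymphoid cells, was at 60.4, 99.0, 40.5 and 85.6 CPM against 40.0, 31.1, 44.9, 22.3 and 17.9 CPM (-1.19 ± 0.344). It was the 1 member with an unadjusted p under 0.05 (background 2.27%). The list median was -0.12 without HFD 23+28, -0.54 without glutamine 25+27 and 0.15 without both. Neutrophil genes had a median of -0.29 over 11 tested, which ran from -0.73 to -0.13 as each library was left out.

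**Figure D4:**
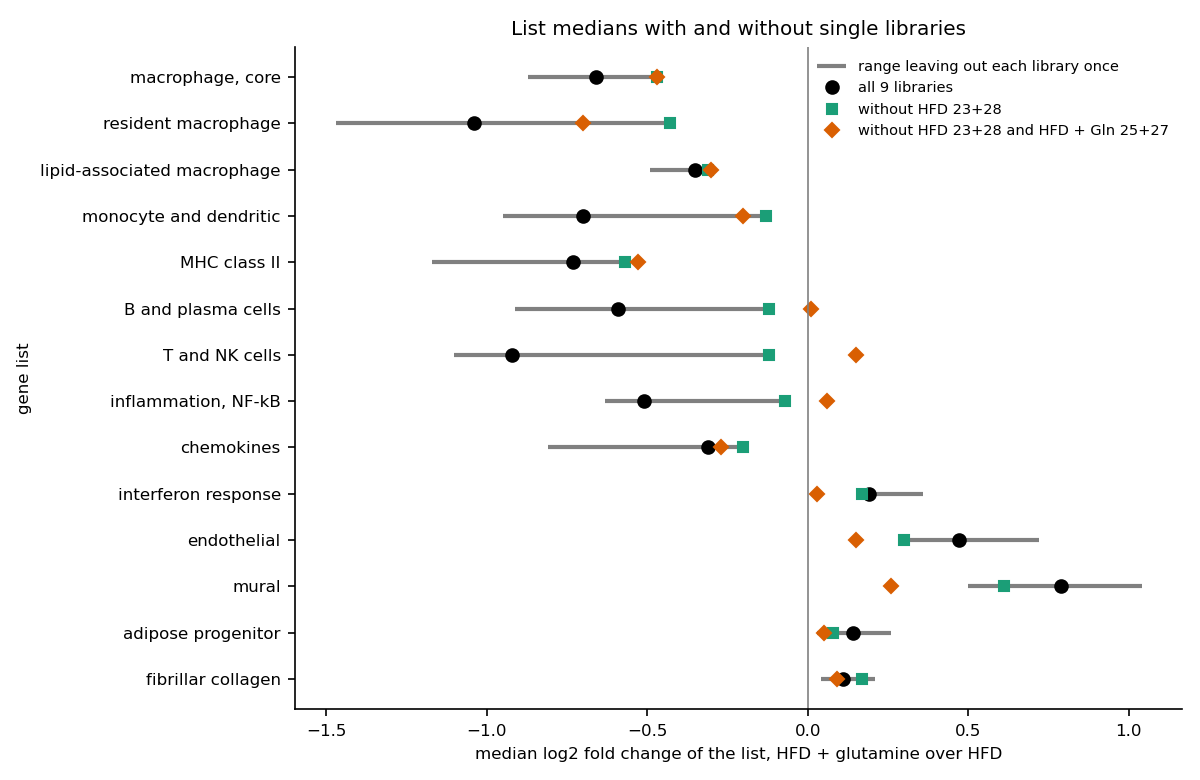
Median log2 fold change of 14 gene lists (glutamine over HFD), with all 9 libraries (black), without HFD 23+28 (green), without HFD 23+28 and glutamine 25+27 (orange), and the range when each library is left out once (grey bar). The B cell, T and NK cell and NF-kB inflammation medians come close to 0 or cross it, while the macrophage and MHC class II medians stay at -0.30 or lower.

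Inflammatory genes were mostly negative. Of 18 NF-kB and inflammation genes tested, 15 were negative with a median of -0.51, and 3 had an unadjusted p under 0.05 (background 2.27%). Il1b, the cytokine interleukin-1 beta of activated myeloid cells, was at 67.9, 6.04, 17.7 and 64.7 CPM against 15.6, 13.2, 12.0, 3.71 and 4.08 CPM (-2.0 ± 0.674). Tnfaip3, the NF-kB feedback inhibitor A20, was at 88.0, 49.6, 34.8 and 192 CPM against 49.2, 43.7, 35.3, 43.0 and 26.0 CPM (-1.20 ± 0.415, or -0.55 without HFD 23+28). For Il1b HFD 5+11 lay among the glutamine libraries, for Tnfaip3 HFD 14+17 did, and the other HFD libraries lay above them. The list median came to -0.07 without HFD 23+28. Il6, which stromal cells also make, was at 41.5 to 70.4 CPM against 32.4 to 55.5 CPM (-0.34 ± 0.266).

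Chemokines attract leukocytes, and 14 of the 20 tested were negative, with a median of -0.31 (-0.81 without glutamine 10+12, -0.61 without HFD 14+17 and -0.20 without HFD 23+28). Ccl6 and Ccl9 are myeloid chemokines of rodents. Ccl9 was at 41.2, 82.0, 69.1 and 112 CPM against 47.4, 49.7, 29.7, 22.7 and 14.0 CPM (-1.21 ± 0.389), and Ccl6 differed by -0.96 ± 0.310. Ccl5, a product of T cells and NK cells, differed by -1.49 ± 0.551. These 3 had an unadjusted p under 0.05 (background 2.27%), and HFD 1+3 was within the glutamine range for Ccl9 and Ccl6. Cxcl14, a chemokine of fibroblasts, differed the other way by 2.61 ± 0.976, but its level was 428 CPM in glutamine 25+27 and 6.31 to 29.1 CPM in all other libraries (0.38 without that library). It was named after its values were seen.

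Interferon response genes were mostly positive, 16 of 18, with a median of 0.19 that ran from 0.17 to 0.36 as each library was left out. Without HFD 23+28, 6 of 18 were negative, and without glutamine 25+27 also 6 of 18. Irf7, the transcription factor that amplifies type I interferon, was at 9.62, 7.47, 13.4 and 7.42 CPM in the HFD libraries and 16.3, 18.5, 28.5, 22.2 and 27.5 CPM in the glutamine libraries. The arms did not overlap, with a fold change of 1.26 ± 0.453, and it was the 1 member with an unadjusted p under 0.05 (background 1.86%). Without HFD 23+28 and glutamine 25+27 the list median was 0.03, with 8 of 18 negative. The MHC class I list went the other way, with 8 of 11 negative and a median of -0.20 (-0.01 without HFD 23+28 and -0.42 without HFD 1+3). Tapbp (tapasin, which loads peptides), 1 of its 3 positive members, was at 125 to 177 CPM against 161 to 253 CPM (0.59 ± 0.192).

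Vessel genes were mostly positive. Of 16 endothelial genes, 14 were positive with a median of 0.47, and none had an unadjusted p under 0.05. Kdr, the VEGF receptor, was at 311, 469, 504 and 158 CPM against 378, 312, 761, 558 and 608 CPM (0.54 ± 0.326). Tie1, an endothelial receptor kinase, differed by 0.80 ± 0.475 and Eng (endoglin) by 0.67 ± 0.392. All 3 genes were lowest in HFD 23+28, and without it Kdr, Tie1 and Eng differed by 0.28, 0.48 and 0.36. The list median was 0.30 without HFD 23+28 or glutamine 13+15, 0.31 without glutamine 25+27, 0.72 without HFD 14+17, and 0.15 without HFD 23+28 and glutamine 25+27.

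Of 11 pericyte genes, 9 were positive with a median of 0.79. Cspg4 (NG2), a surface proteoglycan of pericytes, was at 0.873, 0.232, 1.49 and 0.0673 CPM against 1.63, 1.95, 11.7, 3.71 and 17.5 CPM (3.45 ± 1.35). Its arms did not overlap, although the highest HFD and the lowest glutamine library lay close together. Notch3, the receptor that matures mural cells, was at 19.1 to 43.1 CPM against 22.2 to 110 CPM (0.85 ± 0.452), and Abcc9, a channel subunit of pericytes, differed by 0.76 ± 0.426. Both were highest in glutamine 25+27, and differed by 0.40 and 0.37 without it. The list median was 0.61 without HFD 23+28, 0.50 without glutamine 25+27 and 0.26 without both libraries.

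**Figure D5:**
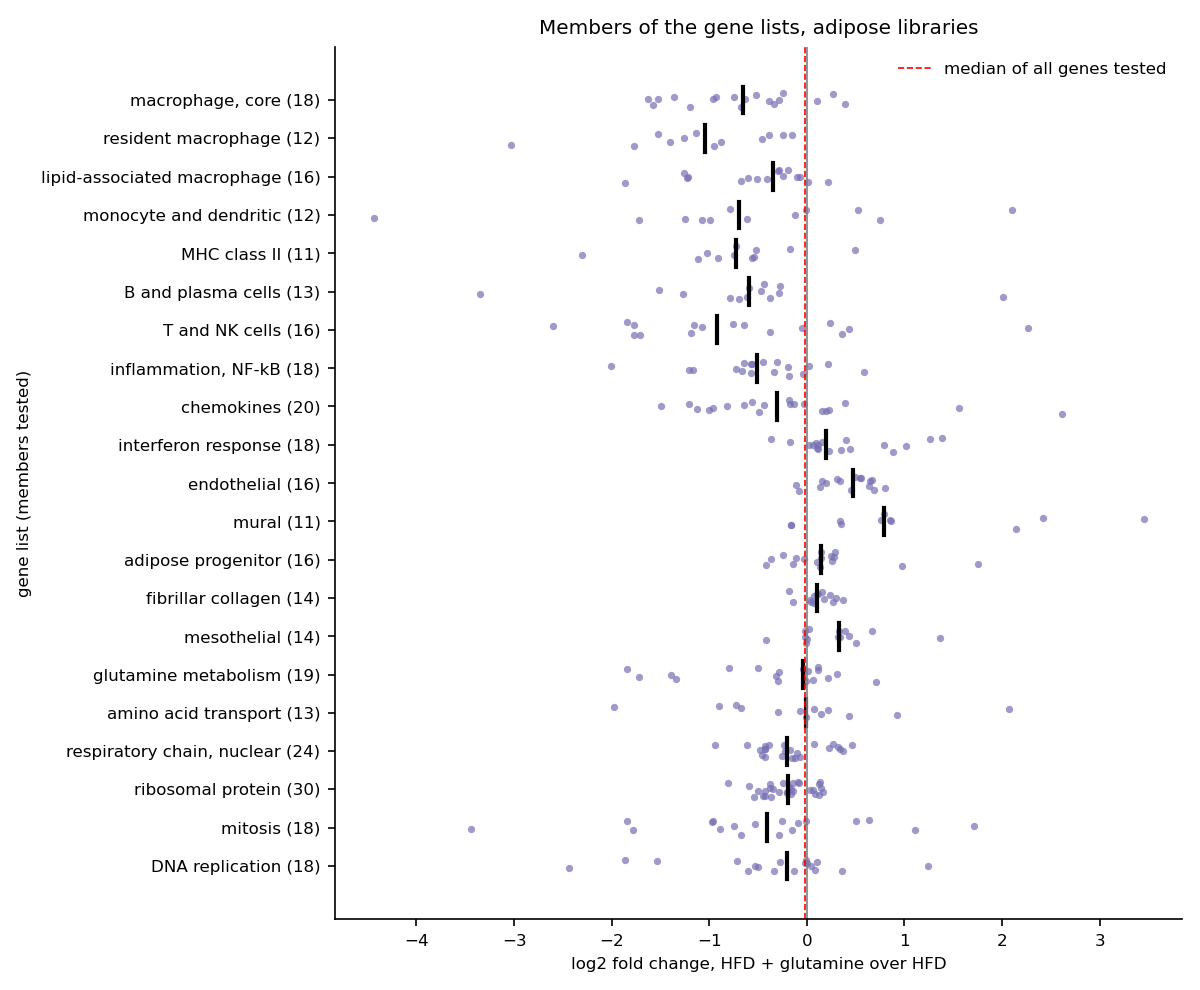
Log2 fold change (glutamine over HFD) of each tested member of 21 gene lists, 1 point per gene, with a black bar at the list median and a dashed line at the median of all 15114 genes. Leukocyte lists lie mostly left of 0, endothelial and pericyte lists mostly right, and progenitor, collagen and glutamine lists around it.

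Progenitor and collagen genes, the core of the labelled cell type, had medians near that of all genes. Of 16 progenitor markers, 10 were positive with a median of 0.14. Pi16, a marker of the most immature progenitors, was at 309, 358, 265 and 172 CPM against 477, 345, 435, 289 and 1157 CPM (0.97 ± 0.366), and glutamine 25+27 was far above the rest (0.49 without it). Bmp7, a growth factor of the same list, was at 8.86, 0.0581, 16.4 and 3.16 CPM against 31.5, 15.8, 16.2, 22.8 and 33.3 CPM (1.75 ± 0.921). Pdgfra differed by -0.37 ± 0.220, with overlapping arms. Of the 14 fibrillar and associated collagens, 12 were positive with a median of 0.11, or 0.04 with 5 of 13 negative without glutamine 25+27. Col1a1, the main collagen chain of fibroblasts, was at 5298, 6729, 7099 and 5635 CPM against 7091, 7929, 6401, 6704 and 9945 CPM (0.30 ± 0.171). In a joint fit of all 18 libraries, where the median of all genes shifted by -0.20, the progenitor and collagen medians were -0.08 and -0.11.

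Of 18 matrix protease genes and their inhibitors, 8 were positive and 10 negative with a median of -0.03. At an unadjusted p under 0.05, 2 were higher (background 1.86%) and 1 was lower (background 2.27%). Mmp19, the lower one, was at 92.0, 79.5, 80.9 and 87.5 CPM against 58.8, 75.6, 47.7, 50.7 and 33.1 CPM (-0.67 ± 0.25). Its arms did not overlap, although they did with scaling by library totals alone, and glutamine 25+27 was lowest. For both higher ones glutamine 25+27 was highest. Mmp3 (stromelysin) was at 430 CPM there and at 0.407 to 41.4 CPM elsewhere (2.39 ± 1.10, or 0.50 without it), and Mmp2 (gelatinase) at 816 CPM there and at 148 to 309 CPM elsewhere (0.91 ± 0.349, or 0.46 without it). Lox (lysyl oxidase) was at 246, 261, 293 and 266 CPM against 375, 261, 311, 386 and 525 CPM (0.48 ± 0.201). In glutamine 25+27 mesothelial genes were nearly missing, with Upk3b at 0.799 CPM against 61.0 to 343 CPM elsewhere, and Msln at 0.147 CPM against 24.5 to 75.4 CPM. The fold changes of Upk3b and Msln were 0.51 ± 0.855 and 0.32 ± 0.853. The adipocyte genes Adipoq and Lep differed by -0.22 ± 0.482 and 0.30 ± 1.16. Adipoq came to -0.81 without glutamine 10+12, its highest library, and to -0.01 without glutamine 25+27, its lowest.

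Genes that handle glutamine itself showed no common direction. Of 19 enzymes tested, 7 were positive and 12 negative, with a median of -0.04. Glul was at 487, 462, 502 and 419 CPM against 679, 590, 518, 487 and 445 CPM (0.22 ± 0.167). Its levels overlapped between the arms, with glutamine 4+6 and 10+12 the highest. Glud1, which takes glutamate into the citric acid cycle, and Oat, which moves its carbon to and from ornithine, differed by -0.50 ± 0.278 (-0.20 without HFD 23+28) and -0.28 ± 0.188. Ppat, which uses glutamine in the first step of purine synthesis, differed by -1.72 ± 0.730, or -0.49 without HFD 5+11. Its level was 55.1 CPM in HFD 5+11 against 7.02 to 10.8 CPM in the other HFD libraries and 2.67 to 9.29 CPM with glutamine.

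Transporters were as mixed, with 6 of 13 positive and a median of -0.01. Slc1a5 (ASCT2), a main glutamine importer, was at 314, 358, 298 and 375 CPM against 352, 376, 272, 264 and 497 CPM (0.07 ± 0.203). Slc38a2 (SNAT2), which amino acid shortage induces, was at 464 to 848 CPM against 505 to 710 CPM (-0.01 ± 0.198). Slc38a1 (SNAT1), a glutamine importer also used by lymphocytes, was at 29.8, 20.8, 11.3 and 144 CPM against 9.53, 30.8, 14.5, 7.61 and 2.67 CPM (-1.98 ± 0.748, or -0.66 without HFD 23+28). Slc6a6, the taurine transporter, was at 166, 153, 117 and 245 CPM against 90.8, 138, 80.4, 80.1 and 123 CPM (-0.73 ± 0.251). Slc1a3, a glutamate transporter, was at 0.613 to 6.57 CPM against 3.35 to 30.6 CPM (2.07 ± 0.836). These 3 had an unadjusted p under 0.05 (background 2.27% lower and 1.86% higher). Targets of ATF4, the factor that answers amino acid shortage, had a median of 0.02 over 19 tested. Asns, asparagine synthetase, differed by 0.71 ± 1.08, and by 0.32 to 1.43 as each library was left out.

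Genes of respiration and ribosomes were mostly negative. Of 24 nuclear genes of the respiratory chain, 17 were negative with a median of -0.20. An unadjusted p under 0.05 was found for 4 of the 24 (background 2.27%). That number was 1 without HFD 23+28 and 3 without glutamine 25+27, with list medians of -0.23 and -0.14. Atp5c1, a subunit of ATP synthase, was at 226, 259, 197 and 220 CPM against 173, 156, 178, 170 and 184 CPM (-0.39 ± 0.160). Cox5a, of cytochrome c oxidase, was at 163, 187, 183 and 210 CPM against 156, 149, 123, 156 and 102 CPM (-0.43 ± 0.188). In both the arms did not overlap (background 0.642%). Cox7b of the same complex differed by -0.61 ± 0.233 with overlapping arms. Ribosomal protein genes, many of which have near-identical pseudogenes, had 22 of 30 negative and a median of -0.19. Slc16a3 (MCT4), which exports lactate, was at 0.113 to 0.959 CPM against 2.52 to 8.77 CPM (3.77 ± 1.38), with arms apart, while the glycolysis list had 8 of 16 positive and a median of 0.01.

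Cell division genes were mostly negative. Of 18 DNA replication genes, 12 were negative with a median of -0.21 (-0.09 without glutamine 4+6 and -0.35 without HFD 23+28). The arms did not overlap for 3 of them, Gins2, Mcm2 and Fen1, against 0.642% of all genes. Gins2, of the replicative helicase, was at 5.95, 18.4, 8.0 and 19.8 CPM against 1.41, 2.80, 3.71, 3.43 and 0.652 CPM (-2.44 ± 0.837). Mcm2, of the same helicase, was at 9.98, 24.3, 13.5 and 26.3 CPM against 2.41, 2.45, 9.59, 6.39 and 4.58 CPM (-1.87 ± 0.649). Fen1, the flap endonuclease, differed by -1.54 ± 0.766. Of 18 mitosis genes, 14 were negative with a median of -0.41 that ran from -0.65 to -0.18 as each library was left out. Ube2c, of the anaphase-promoting machinery, differed by -1.78 ± 0.605 and Aurkb, the kinase aurora B, by -3.44 ± 1.58 at 1.66 to 4.17 CPM against 0.021 to 1.02 CPM.

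Some of these genes share exonic sequence with another annotated gene, and since the strand setting of the counting is not given, their reads cannot be told apart from those of that neighbour. On the opposite strand this concerns Eng with Fpgs, Glul with Teddm2, Irf7 with Phrf1, Myoc with Myocos, Ppat with Paics, Fen1 with Tmem258, Gins2 with Gse1, Mmp19 with Tmem198b and Ube2c with Tnnc2. On the same strand it concerns Tapbp with Zbtb22, and Lilrb4a with an unnamed model.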

How the data were processed

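RNA of 9 adipose samples was sequenced from 30 ng with a QuantSeq 3′ FWD kit, RNA quality numbers were above 7, and only read 1 was used, per the labels' protocols. The authors deposited whole-number read counts per gene. FastQC 0.12.1, STAR 2.7.10b, HTSeq 0.11.3 and GRCm38 are named per the submitters' processing notes, while the annotation, strand setting and duplicate handling were not stated there. Of 46983 gene names, 40115 matched GENCODE M21 directly, 4029 after restoring altered characters, and 2839 did not match.

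Counts were tested with edgeR 4.0.16 in R 4.3.3 (filterByExpr, TMM factors, two-sided quasi-likelihood F test, Benjamini-Hochberg adjustment over all genes, called under 0.05). The fit was also run on simulated counts with known changes, where recovery was required only at a lower spread than that of these libraries. Recovery at the spread seen here is not reported. The SE is the absolute log2 fold change over the square root of F. Alternatives were DESeq2 1.42.0, limma 3.58.1 (voom with quality weights), a robust fit, a joint fit of 18 libraries, other scalings and count filters, and leaving out libraries. Leaving out HFD 1+3, HFD 23+28 and glutamine 10+12 together was chosen after seeing the data.

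Up to 10 genes per direction were named by smallest p among genes of a log2 CPM of at least 2 whose arms did not overlap, plus up to 3 leading members of each list described and a fixed panel. The panel had 35 genes, of which 0 were called. The 52 lists and the members were chosen with earlier results of these data known. Lists were given no test. Intervals of counts cover counting error only, since no molecular identifiers are named.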

Additional observations from a re-analysis of the deposited data

Results flagged for a closer look

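In 21 of 208 checks of an arm's values, the highest or lowest library was farther from the others than Dixon's 95% limit. For independent, normally distributed values chance alone gives this in about 1 in 20 groups. The checks reuse the same 9 libraries, and some genes and the spermatid list were chosen after their values were seen. The count therefore cannot be set against that rate. Most of the outlying values came from 4 libraries, and no cause was tested.

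In HFD 23+28 the high values were Ccr2 at 186 CPM, Irf8 at 127 CPM and Slc38a1 at 144 CPM, genes of leukocytes among others, Ttc8 at 56.4 CPM and Pparg at 49.4 CPM. In glutamine 25+27 the high values were those of the progenitor and fibroblast genes Pi16 at 1157 CPM and Cxcl14 at 428 CPM and the protease genes Mmp2 at 816 CPM and Mmp3 at 430 CPM. In glutamine 10+12 the spermatid list summed to 3586 CPM, Adipoq stood at 57.2 CPM and the macrophage gene Trem2 at 22.4 CPM. The same library had 14469 genes with at least 100 counts and 0.019% of counts from mitochondrially encoded genes, each the highest of its arm.

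In HFD 5+11 the purine synthesis gene Ppat was high at 55.1 CPM and the lactate exporter gene Slc16a3 at 0.959 CPM. In HFD 1+3 Lilrb4a was low at 20.1 CPM. In glutamine 18+20 Nucb1 was low at 103 CPM, Tapbp was low at 161 CPM, and Flt3 was high at 1.03 CPM. In glutamine 13+15 the mitotic kinase gene Aurkb was high at 1.02 CPM.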

How the results depend on the processing

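edgeR called 0 genes in every alternative that used it, as did limma-voom, and DESeq2 called 31. The counts of genes at an unadjusted p under 0.05, 281 higher and 343 lower, were 124 and 59 in the joint fit, 1089 and 1097 without a count filter, and 170 to 958 and 215 to 543 as each library was left out. The lower count was 165 without HFD 23+28 and glutamine 25+27. Of 1760 refitted values of 88 named genes, 23 in 7 genes changed sign, and the cause was not tested. With voom weights Upk3b was -1.04, Msln -1.10, Lep -1.11 and Slc38a2 0.03. Without the 3 libraries with most spermatid counts Pdgfra was 0.001, Msln -0.144 and Lep -1.63. In the joint fit Slc1a5 was -0.157. Slc38a2 was 0.017 with library totals and 0.047 with upper-quartile factors, where Cxcl12 was 0.024. Slc1a5 was -0.031 without HFD 23+28 and glutamine 25+27. As each library was left out, Slc1a5 ran from -0.083 to 0.161, Slc38a2 from -0.125 to 0.195, Lep from -0.901 to 1.29 and Cxcl12 from -0.383 to 0.14.

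Of 1040 list medians under alternatives, 1024 moved by less than the spread of libraries, a wide limit that large shifts also met. Without HFD 23+28 the NF-kB inflammation median went from -0.51 to -0.07 and that of B and plasma cells from -0.59 to -0.12. Without the same library the monocyte and dendritic median went from -0.70 to -0.13 and that of resident macrophages from -1.04 to -0.43. These shifts were within that limit. In the joint fit, which shifted all genes by -0.203, the medians were -0.113 for fibrillar collagens, -0.156 for small proteoglycans, -0.413 for the respiratory chain, -0.233 for fatty acid oxidation, -0.399 for ribosomal proteins and -0.423 for DNA replication. With voom weights the T and NK cell list was at -0.197 and lymphatic endothelium at -0.548. Without HFD 23+28 and glutamine 25+27 the T and NK cell list was at 0.153 and the pericyte list at 0.259. Without the 3 spermatid-rich libraries the Schwann cell list was at 1.89, complement at 0.027 and mitochondrially encoded genes at -0.692. Leaving out each library gave -1.10 to -0.122 for T and NK cells, -0.808 to -0.20 for chemokines and -0.314 to 0.049 for amino acid transport. The difference in total counts between arms ran from -752900 to 5295000.

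No paired analysis was possible because the arms share no library number. Precision was limited by the spread between libraries, a common biological coefficient of variation of 0.953, at totals of 35871168 or more counts a library.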

Other observations

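Complement is a cascade of plasma and tissue proteins that marks targets for phagocytes. Of 14 genes of the list tested, 8 were negative with a median of -0.28 (-0.14 without HFD 1+3 and -0.13 without glutamine 25+27). The 4 at an unadjusted p under 0.05 (background 2.27%) were the 3 C1q chains and C3ar1. That number was 1 without HFD 23+28 and 4 without glutamine 25+27. The 3 C1q chains are also on the core macrophage list, so they are counted in both. C3ar1, the macrophage receptor of the C3a fragment, was at 10.4, 64.7, 33.5 and 61.1 CPM in the HFD libraries and 16.7, 18.1, 8.49, 20.2 and 22.9 CPM in the glutamine libraries (-1.29 ± 0.486). HFD 1+3 was low and the other 3 HFD libraries lay above all glutamine libraries. Il1rl1 (ST2), the interleukin-33 receptor of type 2 innate lymphoid cells, regulatory T cells and mast cells, was at 46.5, 44.7, 33.3 and 101 CPM against 39.3, 31.5, 34.6, 26.0 and 15.1 CPM (-0.94 ± 0.374, or -0.51 without HFD 23+28). The alarmin gene S100a9 of neutrophils was at 164, 72.0, 28.2 and 91.8 CPM against 83.2, 49.9, 23.6, 14.8 and 26.7 CPM (-1.16 ± 0.514, or -0.70 without HFD 1+3). Ccng1, a target of p53, was at 96.9, 111, 62.3 and 123 CPM against 63.8, 59.2, 77.8, 56.9 and 59.4 CPM (-0.63 ± 0.234). Here HFD 14+17 lay among the glutamine libraries.

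The epididymal epithelium list summed to 68.8, 25.4, 46.0 and 96.2 CPM in the HFD libraries. In the glutamine libraries it summed to 77.6, 114, 87.6, 18.7 and 5.64 CPM, highest in glutamine 10+12. Akr1b7 and Crisp1, genes of the male reproductive tract named after their values were seen, were high in HFD 1+3 and 23+28. Akr1b7, an aldo-keto reductase known from the vas deferens and adrenal, was at 152, 17.6, 0.433 and 281 CPM in the HFD libraries and 0.194, 0.213, 109, 0.304 and 0.147 CPM in the glutamine libraries. Crisp1, a secreted protein gene of the epididymis, was at 22.4, 0.0581, 2.09 and 58.0 CPM against 9.53, 40.5, 42.7, 0.0812 and 0.0421 CPM. Glutamine 10+12, highest for spermatid genes, had Akr1b7 near 0 and Crisp1 at 40.5 CPM. Glutamine 13+15, with few spermatid counts, had both genes high. The part of reproductive tract RNA in the differences between arms was not tested.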
